A study of Mus musculus with 4 samples.

Results

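The regions described here are the background peaks of CUT&RUN, those given by IgG, an antibody with no chosen target, in mouse skeletal muscle. They comprised every peak of the deposited Ctrl IgG list (77 peaks) and KO IgG list (152 peaks), 229 of the 2011 peaks in the series, and the shared ones were chosen by whether the called peak overlapped one of the other IgG list by at least 1 bp. Both libraries came from the gastrocnemius, a calf muscle, of male C57BL/6 mice aged 4 weeks, and both carried the floxed Phf2 allele (Phf2 flox/flox). Ctrl mice had no Cre (Acta1 Cre-) and KO mice had it (Acta1 Cre+). Acta1 encodes skeletal muscle actin, so Cre acts in muscle fibres, and the blood vessel, connective tissue, immune and satellite cells of the muscle keep the gene. The series also held 1 library of each genotype made with an antibody to PHF2, a histone demethylase family member that reads and acts on chromatin, with 1621 Ctrl and 161 KO peaks. Each group was 1 library, for which the labels give no number of animals, so the values describe these libraries and not the genotypes, and no test between groups was possible. Peak lists hold no expression, so neither the tissue nor the deletion of Phf2 could be checked with them.

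In CUT&RUN an antibody tethers a nuclease to chromatin, and the DNA it cuts free is sequenced. With IgG the nuclease has no chosen target, so the reads record DNA released without an antibody's guidance, open or abundant DNA, and places where reads from many copies of a repeat are piled onto few copies in the assembly. Mitochondrial DNA, the ribosomal RNA genes and satellite repeats near centromeres and telomeres, all present in many copies per cell, are textbook sources of such piles. Mouse chromosomes are telocentric, with the centromere at the end where coordinates begin.

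Only 1 gene had its promoter window (250 bases before to 50 after the annotated start, RefSeq, GRCm38.p6) under an IgG peak among the windows in the table used, and that gene is shown because its sequence can be read. It is the long non-coding RNA gene Gm40237 on the plus strand of chromosome 4. The Ctrl peak ran from 118547223 to 118548637 and covered 233 bases of the window, and 1 of 2 KO peaks there, from 118547249 to 118547455, covered 207. The window is a tandem repeat, and capitals mark the 6 exact copies of a unit of 33 bases, each starting 44 bases after the last.

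Gm40237 window, chr4:118547156-118547455: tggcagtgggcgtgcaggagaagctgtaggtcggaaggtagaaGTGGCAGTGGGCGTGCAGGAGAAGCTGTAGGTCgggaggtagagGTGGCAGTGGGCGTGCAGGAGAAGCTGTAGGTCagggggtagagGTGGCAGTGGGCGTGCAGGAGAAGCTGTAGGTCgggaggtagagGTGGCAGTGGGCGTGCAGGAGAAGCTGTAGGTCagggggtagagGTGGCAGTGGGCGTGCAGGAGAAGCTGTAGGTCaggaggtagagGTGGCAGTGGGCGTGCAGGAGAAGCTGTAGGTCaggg

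Set against itself at a shift of 44 bases, 96.1% of the window's bases were identical, and at 88 bases 97.6% were. Of 32851 promoter windows, 6 (0.0183%) reached 90% identity at any shift from 10 to 100 bases. The capitalised unit, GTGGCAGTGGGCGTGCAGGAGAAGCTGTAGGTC, was found on either strand in 2 windows (0.00609%), both belonging to Gm40237. The KO peak over the window had 31 tags at its summit (exact Poisson 95% interval 21.1 to 44). The summit of the Ctrl peak, with 74 tags (58.1 to 92.9), lay downstream of the window, 17 bp from the summit of the other KO peak, at 118547630 to 118548140, which had 81 (64.3 to 101). These 2 summits had overlapping intervals, and the Ctrl height within the printed window is not in the list.

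**Figure D1:**
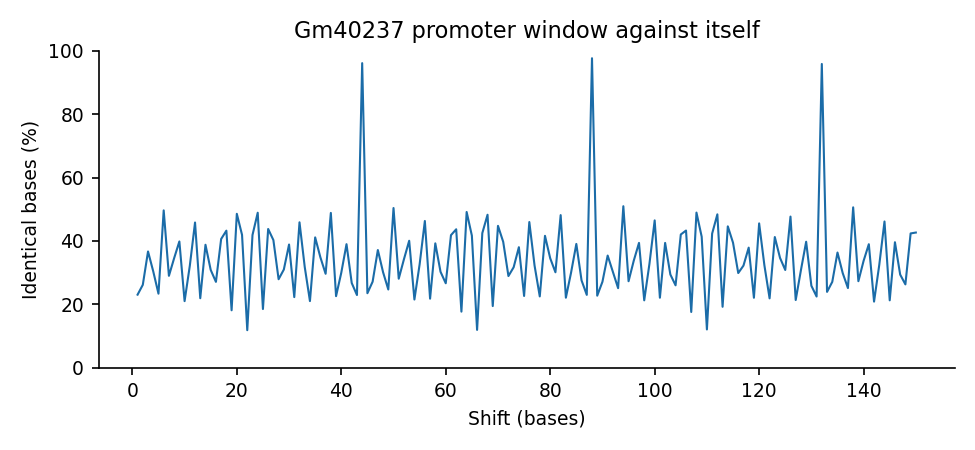
Percent of identical bases (vertical axis) when the promoter window of Gm40237 is set against itself shifted by 1 to 150 bases (horizontal axis). Peaks stand at shifts of 44, 88 and 132 bases, at 96.1%, 97.6% and 95.8%, and every other shift lies below them.

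Heights are given as tags at the summit, the number of tags counted over a peak's highest point. What counted as a tag differed in form between the lists, as described below. This height was recovered as a whole number from the deposited fold and -log10 p. The fold enrichment is that height over the local background, which had the form of the mean over the surrounding 10 kb or, at the lowest, over the genome. Tags ranged from 7 to 21051 (median 91) in Ctrl and from 5 to 398 (median 23) in KO. The values had different forms in the lists. Background moved in steps of a single tag of 199 bp in KO, and in steps of 2 ends per tag of 245 bp in Ctrl, the form MACS2 gives to single tags and to read pairs respectively. The highest KO summit, 398 tags, equals 2 times 199, the most that can cover a base when each position and strand counts once, and 12 Ctrl summits but 0 KO summits exceeded it. How duplicates were treated is not given in the sources used here. Tall summits are therefore not on one scale between the libraries. Whether tags in the surrounding 10 kb are, which were counted in the same different forms, was not tested. The lowest background corresponded to 1177 tags per Mb in Ctrl and to at most 900 in KO, and read totals are unknown.

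Most of the Ctrl background recurred in KO. Of the 77 Ctrl IgG peaks, 68 overlapped a KO IgG peak (88.3%, Wilson 95% interval 79.3 to 93.7), while 76 of the 152 KO IgG peaks overlapped a Ctrl IgG peak (50%, 42.1 to 57.9). These shares are what the rule itself measured and are given as a description. Against the 77 KO peaks of highest fold enrichment alone, 37 Ctrl peaks (48.1%) had an overlap, and of the 84 KO peaks with at least 20 tags, 64 (76.2%) did. Merged, the lists made 152 regions, of which 67 were in both, 9 in Ctrl only and 76 in KO only. Single-list means here that no peak was called in the other library, since the tags at such places are not in the lists. The overlap was seldom marginal. The narrowest overlaps were 143, 150 and 155 bp, and the nearest misses were gaps of 211 and 217 bp in the ribosomal RNA cluster on chromosome 17 and 426 bp on chromosome 15. The summits of the 68 pairs (each Ctrl peak with the tallest KO peak it overlapped) lay a median of 27 bp apart, and 51 pairs were within 50 bp.

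Whether a KO peak had a Ctrl counterpart went with its height. Of the 42 KO peaks with fewer than 10 tags 5 were shared (11.9%, Wilson interval 5.19 to 25), of the 26 with 10 to 19 tags 7 were (26.9%, 13.7 to 46.1), and of the 39 with 100 or more 35 were (89.7%, 76.4 to 95.9). In the Ctrl list 12 of the 13 peaks with fewer than 20 tags were shared, as were 14 of the 15 with 20 to 49, 8 of the 13 with 50 to 99 (61.5%, 35.5 to 82.3) and 34 of the 36 with 100 or more. KO peaks in both lists had a median of 87.5 tags (quartiles 31 and 139) and KO-only peaks 10 (7 and 20.3). Fold enrichment did not separate these KO classes in the same way. Its median was 6.81 (quartiles 3.89 and 14.8) in shared KO peaks and 6.51 (5.47 and 8.34) in KO-only peaks, and among peaks with a -log10 q of 5 or more the order turned, at 7.01 and 7.91.

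**Figure D2:**
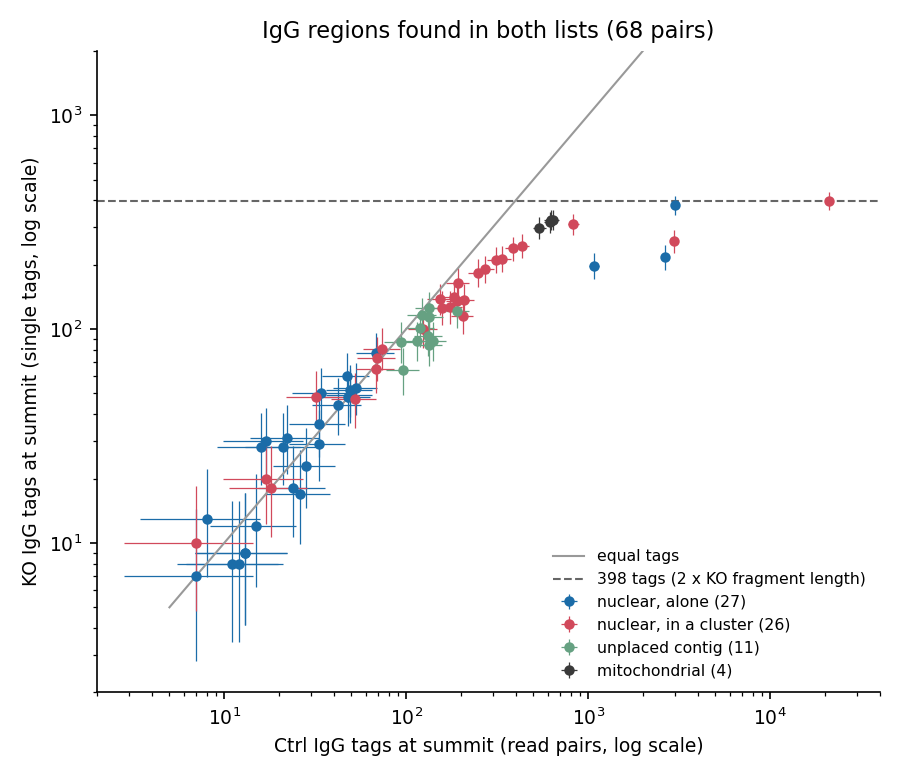
Tags at the summit of the 68 IgG regions found in both lists, Ctrl on the horizontal and KO on the vertical axis, both on log scales, coloured by place, with exact Poisson 95% intervals as bars. Regions under 100 Ctrl tags lie along the line of equal tags, and taller ones lie below it. The dashed line marks 398 tags, which no KO summit exceeds.

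At the lower heights the libraries had similar tags at the same regions. In the 34 pairs with under 100 Ctrl tags the median ratio of KO to Ctrl tags was 1 (quartiles 0.836 and 1.25), with KO higher in 16, equal in 5 and lower in 13, and the Poisson intervals overlapped in all 34. In the 23 pairs with 100 to 398 Ctrl tags the ratio had a median of 0.730, KO was lower in every pair, and the intervals overlapped in 12. In the 11 pairs above that the median was 0.373, the lowest 0.0189, and no intervals overlapped. The ranks of the regions were alike throughout, with Spearman's rho of 0.982 over the 68 pairs and 0.939 over the 34 low ones. The points are regions of the same libraries, and neighbours within a cluster share repeats and mapping, so these are descriptions.

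The places of the peaks were mostly outside protein-coding genes. In the Ctrl list 17 peaks lay before the first annotated gene of their chromosome, 6 beyond the last, 13 between genes, 12 at a long non-coding RNA gene, pseudogene or other non-coding gene, 11 at a protein-coding gene, 13 on unplaced contigs and 5 on the mitochondrial chromosome. The KO list held 21, 11, 54, 19, 27, 17 and 3 in the same order. The places between genes and at protein-coding genes held 57 of the 76 KO-only peaks, 40 and 17 of them. Among nuclear chromosomes 8, X and Y had no Ctrl IgG peak and Y had no KO IgG peak, while chromosome 9 led both lists with 17 and 26.

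**Figure D3:**
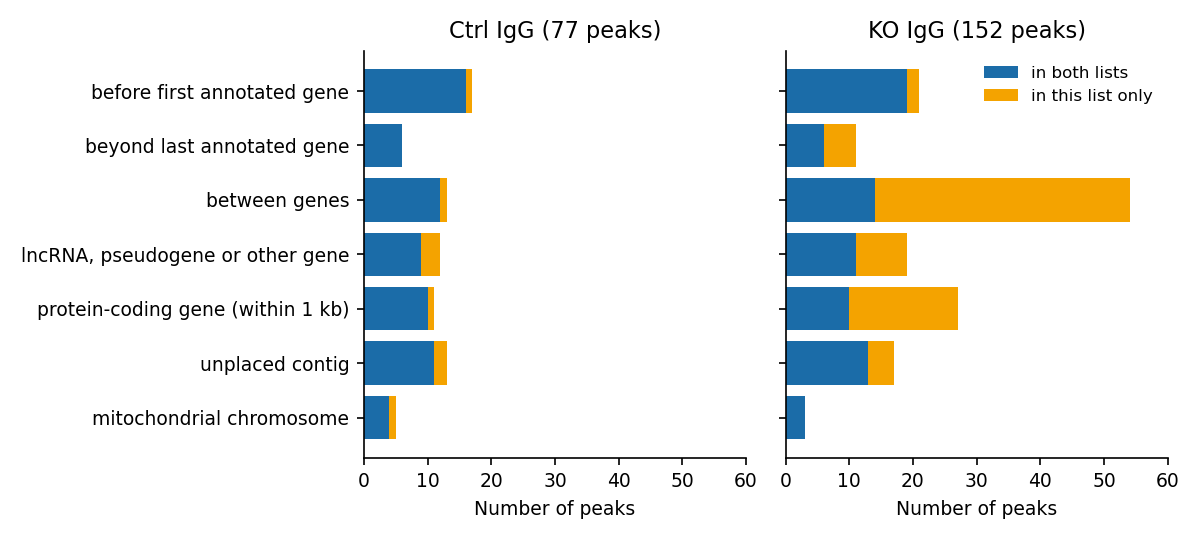
Number of IgG peaks (horizontal axis) by place (vertical axis) in the Ctrl list of 77 peaks and the KO list of 152, split into peaks found in both lists and peaks found in that list only. The excess of KO peaks stands mainly between genes, with 54 against 13, and at protein-coding genes, with 27 against 11.

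Clusters, defined as 3 or more IgG peaks of either list with neighbours at most 1 Mb apart, held 115 of the 229 peaks (50.2%). They took 49 of the 77 Ctrl peaks (63.6%, Wilson interval 52.5 to 73.5) and 66 of the 152 KO peaks (43.4%, 35.8 to 51.4). Of the 14 clusters, 13 held peaks of both lists. The lists were pooled for this, so a shared region counts at least once per list towards the 3 peaks needed. The definition therefore favours clusters that hold both lists. Outside clusters 27 of 28 Ctrl peaks were shared, against 27 of 86 KO peaks, shares of 96.4% and 31.4%.

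The most populous cluster opened chromosome 9. It spanned 38083 bp, from 3000200 to 3038282, ahead of the first annotated gene, and held 15 Ctrl and 19 KO peaks, of which 14 and 17 were shared. Ctrl summits ranged from 123 to 830 tags (median 192) and KO summits from 92 to 310 (median 138). Ctrl was highest at the first peak, with 830 tags (774 to 888), where KO had 310 (276 to 347). KO was lower in all 14 pairs, by a median ratio of 0.718 at the summit, whereas the tags over the surrounding 10 kb had a median ratio of 1.06 (0.757 to 1.09). Summits above 398 tags are not on one scale between the libraries, and whether those of 100 to 398 are was not tested. Nor was it tested for the tags over 10 kb. The single Ctrl-only peak, at 3019925 to 3020304, had 136 tags. The first annotated gene, the microRNA gene Mir101c, began 403 bp beyond the last Ctrl peak and 387 bp beyond the last KO peak. Its mature RNA (chr9:3038680-3038698, minus strand) is shown beside miR-101a-3p of chromosome 4, with the seed, bases 2 to 8, in capitals.

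mmu-miR-101c: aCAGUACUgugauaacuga
mmu-miR-101a-3p: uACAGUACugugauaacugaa

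The 19 bases of miR-101c are found whole in the 21 of miR-101a-3p from position 2, so the annotated seeds are offset by 1 base. No miRNA was measured here.

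The unplaced contig JH584304 held the next largest cluster, with 13 Ctrl and 14 KO peaks over 44038 bp, 11 and 13 of them shared. Ctrl summits had 90 to 191 tags (median 122) and KO summits 64 to 125 (median 97). KO was lower in all 11 pairs, at a median ratio of 0.772, and the intervals overlapped in 8. Whether heights of this range are on one scale between the libraries was not tested. Tags in the surrounding 10 kb were slightly higher in KO in every pair, at ratios of 1.04 to 1.21. Whether these tags are on one scale was not tested either. The Ctrl-only peaks there, at 81082 to 81635 and 84858 to 85152, had 90 and 91 tags. The other unplaced peaks were KO only, 2 on GL456370 and 1 on GL456392.

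**Figure D4:**
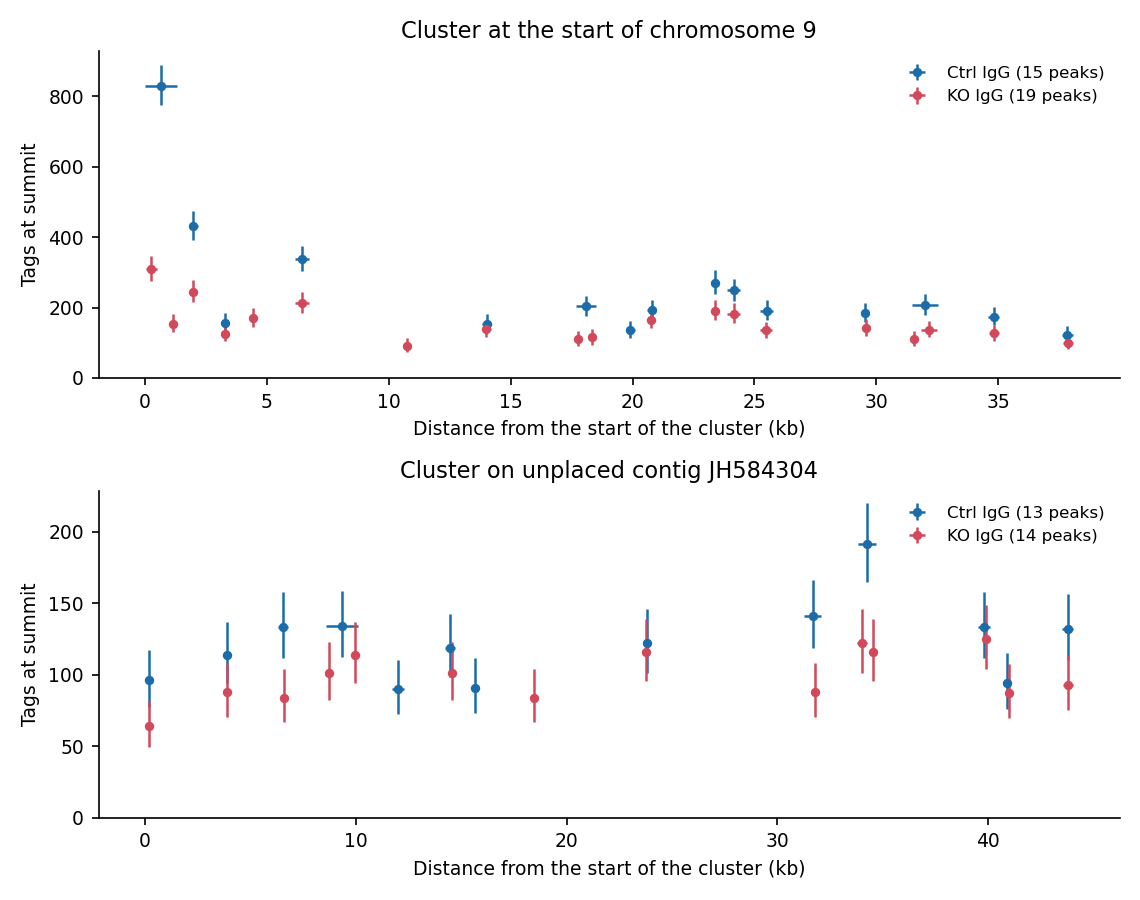
Tags at the summit (vertical axis) against distance from the start of the cluster in kb (horizontal axis) for the peaks of the chromosome 9 and JH584304 clusters, with exact Poisson 95% intervals (vertical bars) and peak widths (horizontal bars). Most Ctrl and KO peaks stand at the same positions, and the Ctrl peaks at the start of the chromosome 9 cluster are the tallest, at 830 and 432 tags.

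On the mitochondrial chromosome the peaks were broad and low over their surroundings. Ctrl had 5 peaks that covered 7815 bp and KO 3 that covered 7069 bp. The first ran from 139 to 3463 in Ctrl and from 119 to 3458 in KO, across the ribosomal RNA genes mt-Rnr1 and mt-Rnr2 and part of ND1, a subunit gene of respiratory complex I. It had 618 tags in Ctrl and 316 in KO. The KO peak at 12195 to 15399, over ND5, ND6 and CYTB, matched 2 Ctrl peaks, at 12150 to 13439 and 13695 to 15227, with 640 and 622 tags against 324. The last, at 15607 to 16097 in Ctrl (540 tags) and 15604 to 16127 in KO (297 tags), lay beyond the last annotated mitochondrial gene, which ends at 15422. A peak at 5265 to 6440 over most of COX1, a subunit gene of cytochrome c oxidase, was called in Ctrl only, with 667 tags and a fold enrichment of 1.47. Fold enrichments of mitochondrial peaks ranged from 1.47 to 2.02 in Ctrl and from 1.45 to 2.06 in KO, since 11131 to 18424 Ctrl tags and 7211 to 10917 KO tags lay within the 10 kb around them. Summits of this height are not on one scale between the libraries, so the amount of mitochondrial DNA cannot be compared from them.

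A nuclear relative of that signal lay on chromosome 1 from 24611664 to 24616081, over the pseudogenes Gm10222 and Gm10925, in a stretch known as a nuclear copy of mitochondrial DNA. Both lists had 2 peaks there, all shared. The Ctrl summits had 311 and 386 tags and the KO summits 211 and 238. Around them 5138 to 5140 Ctrl tags and 3988 to 3990 KO tags lay in 10 kb. The KO tags were 0.776 of the Ctrl tags by that measure, against 0.648 to 0.816 on the mitochondrial chromosome. The 10 kb windows of the 2 peaks overlap, so their ratio describes 1 place. Whether tags in 10 kb are on one scale between the libraries was not tested.

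The ribosomal RNA locus of chromosome 17, at 39843524 to 39848593 over the 18S pseudogene Rn18s-rs5 and the non-coding gene AY036118, had strong background in both libraries, with peaks that matched only in part. It held 4 Ctrl and 3 KO peaks at almost one height, 58 to 68 tags in Ctrl and 55 to 66 in KO. Only 1 Ctrl peak had a KO counterpart, and 2 of the 3 KO peaks overlapped it. The Ctrl-only peaks, at 39843524 to 39843790, 39846930 to 39847273 and 39848245 to 39848593, had 60, 58 and 65 tags. In the shared pair the tags were 68 (Ctrl) and 65 (KO), with 1145 and 1289 in the surrounding 10 kb. The peaks here stood at a fold enrichment of 2.03 to 2.52.

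The tallest background of all was at chromosome 2, 98662242 to 98667326, a span with no annotated gene. Its single Ctrl peak had 21051 tags (20768 to 21337) and the KO peak over it 398. KO had a further 2 peaks, of 330 and 255 tags, with no Ctrl peak over them. A region of chromosome 14, from 19415734 to 19419000, was alike, with 2970 Ctrl tags (2865 to 3079) in 1 peak and 3 KO peaks of 195 to 258 tags. At these places the Ctrl summit held 53.1% and 52.5% of the tags in the surrounding 10 kb, and the tallest KO summit 17.1% and 14.9%. The part that the treatment of duplicates has in these differences was not tested.

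The remaining clusters were small. On chromosome 17 from 13305981 to 13655040, at the non-coding genes 2700054A10Rik, Gm36684 and Gm41530, 3 Ctrl peaks of 7 to 52 tags and 5 KO peaks of 10 to 47 were found, with 2 shared in each list and a Ctrl-only peak of 32 tags at 13550733 to 13551152. Near the end of chromosome 1, from 195241610 to 195371968, a Ctrl peak of 18 tags matched a KO peak of 18 tags, and a second KO peak of 19 tags had no Ctrl counterpart. On chromosome 13 the pseudogene Gm20590, at 74529954 to 74530655, had 17 Ctrl tags and 16 and 20 KO tags in 2 peaks. On chromosome 15 from 75085627 to 75087018 a pair had 69 and 73 tags, beside a KO-only peak of 21. The cluster on chromosome 9 from 123461834 to 124257880 began at Lars2, described among the genes. The only cluster of a single list was on chromosome 13 from 119596759 to 120321636, with 3 KO peaks of 7 to 22 tags.

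The peaks ranged from single stacks to rises within a broad region, described here with limits set after the values were seen. In 29 of the 77 Ctrl peaks and 56 of the 152 KO peaks the summit held at least 50% of all tags in the surrounding 10 kb, a single narrow stack. In 39 Ctrl and 57 KO peaks it held under 20%, a rise within a region that was high throughout. The low-contrast peaks were those of the clusters, 39 of 39 in Ctrl and 52 of 57 in KO. Of the narrow stacks 28 of 29 in Ctrl and 25 of 56 in KO were shared. The highest fold enrichments of both lists came from 3 such stacks. At chromosome 12, 3109867 to 3110121, the Ctrl summit had 2653 of the 2663 tags in 10 kb (99.6%) and KO had 216 of 222 (97.3%). Inside Chl1 on chromosome 6 Ctrl had 1080 of 1086 and KO 197 of 202. At the non-coding gene Gm33838 on chromosome 9, from 35305236 to 35305592, Ctrl had 2985 of 3084 and KO 379 of 432. Their fold enrichments of 39.0 to 40.01 in Ctrl lie near 40.8, the most that a single stack can reach there over a 10 kb background. In KO they were 39.4 to 40.1, below the limit of 50.3 for that list. Fold enrichment thus ranks these peaks by shape as well as by height.

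**Figure D5:**
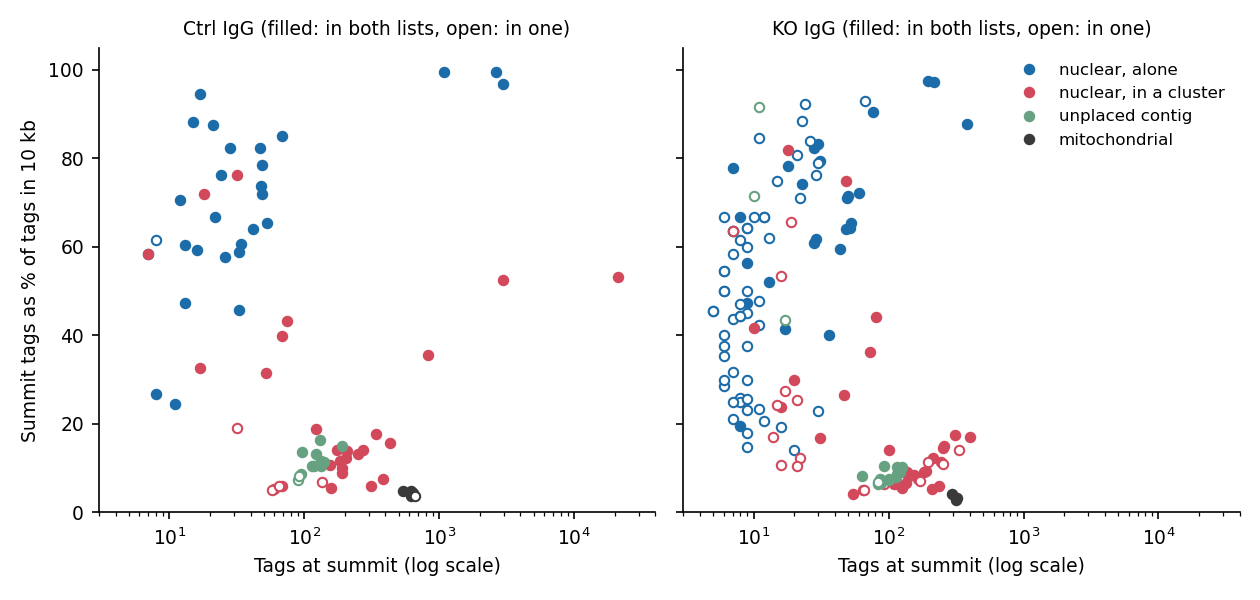
Tags at the summit as a percent of the tags in the surrounding 10 kb (vertical axis) against tags at the summit (horizontal axis, log scale) for every IgG peak, coloured by place, with filled points for peaks in both lists and open points for peaks in one. Mitochondrial and unplaced-contig peaks of JH584304 lie under 20% in both panels, while 3 stacks reach 96.8% to 99.6% in Ctrl and 87.7% to 97.5% in KO.

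The ends of chromosomes recurred as background. Beyond the outermost annotated genes lay 23 of 77 Ctrl IgG peaks (29.9%, Wilson interval 20.8 to 40.8) and 33 of 152 KO IgG peaks (21.7%, 15.9 to 28.9), counting for KO a peak 765 bp beyond Wls. At the starts these were mainly the chromosome 9 cluster, with 15 Ctrl and 19 KO peaks within 38083 bp. The shares thus count that place many times, and the part of the genome beyond the outermost genes was not measured. Chromosomes 18 (33 Ctrl and 36 KO tags) and 2 (12 and 8) had single shared peaks at their starts. Past the last gene the same 6 chromosomes had a peak in both lists. The tags there were 68 in Ctrl and 77 in KO on chromosome 12, 53 and 53 on chromosome 14, 49 and 52 on chromosome 7, 47 and 60 on chromosome 18, 21 and 28 on chromosome 19, and 7 and 7 on chromosome 10. The Poisson intervals overlapped in all 6 pairs. KO had such peaks on 6 further chromosomes, of 30 tags on chromosome 2, 26 on 16, 24 on 3, 23 on X, 19 on 1 and 7 on 13. In the PHF2 lists 0 of 1621 Ctrl and 0 of 161 KO peaks lay beyond the outermost genes, which allows shares of up to 0.185% and 1.86%, and none were on unplaced contigs or the mitochondrial chromosome.

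Few protein-coding genes had an IgG peak, and with only 59 Ctrl and 132 KO peaks on nuclear chromosomes few could. On nuclear chromosomes 12 of 21883 protein-coding genes had a Ctrl IgG peak inside or within 1 kb (0.0548%) and 27 had a KO IgG peak (0.123%), and 11 had both. On those chromosomes 18.6% of Ctrl peaks (10.7 to 30.4) and 20.5% of KO peaks (14.5 to 28.1) lay at such genes, which cover 39.5% of the span between the outermost genes. Both shares also count peaks beyond the outermost genes, 23 in Ctrl and 33 in KO. That span leaves such places out, so its coverage is not a like measure for the shares. Whether peaks avoid protein-coding genes was not tested. With all annotated genes, non-coding ones included, 25 of the 77 Ctrl peaks (32.5%) and 49 of the 152 KO peaks (32.2%) lay at a gene, against 14.3% and 17.8% at protein-coding genes. On nuclear chromosomes these shares with all genes were 42.4% (30.6 to 55.1) and 37.1% (29.4 to 45.6). All genes cover 48.4% of the span, and the same limit applies to this value. Only 2 of 56 Ctrl peaks (3.57%, 0.985 to 12.1) and 4 of 128 KO peaks (3.13%, 1.22 to 7.76) lay within 1 kb of an annotated transcription start, with median distances of 53.3 and 38.5 kb. In the PHF2 lists 1165 of 1565 Ctrl peaks (74.4%, 72.2 to 76.5) and 104 of 154 KO peaks (67.5%, 59.8 to 74.4) did. Peaks of 1 library are not replicates, and many IgG peaks share a cluster, so the intervals give no test between the lists. Starts could be placed only on chromosomes in the promoter table, which leaves out chromosome 18, unplaced contigs and mitochondria.

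The 11 genes with a peak in both libraries shared 10 peaks, all inside the gene body. Apart from Chl1, the Poisson intervals of the libraries overlapped at every one of these peaks. Zc3h7a, a zinc finger gene on chromosome 16, had 49 tags in each library (36.3 to 64.8). A single peak inside both Cmss1 and Filip1l, overlapping genes on chromosome 16 (57391223 to 57391684 in Ctrl), had 48 tags in each (35.4 to 63.6). Aida, which encodes an axin-interacting protein, had 33 tags in Ctrl and 29 in KO, Kctd16, an auxiliary subunit gene of the GABA-B receptor, 28 and 23, and Myo3a, a myosin motor gene of the inner ear, 13 and 9. Another 4 had more tags in KO. Lars2, the mitochondrial leucyl-tRNA synthetase gene, had 32 (21.9 to 45.2) in Ctrl and 48 (35.4 to 63.6) in KO, at chromosome 9 from 123461834 to 123462172, close to the end of the gene at 123462675. Cdk8, the kinase gene of the Mediator complex, had 22 and 31, Gphn, which encodes the synaptic scaffold gephyrin, 17 and 30, and E030030I06Rik 16 and 28. Chl1, a neural cell adhesion gene, was the exception, with 1080 tags in Ctrl (1017 to 1146) and 197 in KO (170 to 227) in one of the narrow stacks. Its Ctrl summit is above 398 tags, so these heights are not on one scale between the libraries. The fold enrichment there was 39.1 in Ctrl and 39.4 in KO. Exons and introns could not be told apart with the annotation used.

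Muc3, a mucin gene, was the only gene with a peak in Ctrl alone, of 8 tags (3.45 to 15.8) at chromosome 5, 137152251 to 137152531. The 16 genes with a KO peak alone had 5 to 30 tags (median 9), and 12 of them had fewer than 20. The highest by fold enrichment was Wls, which encodes the carrier that brings Wnt proteins to the cell surface, at 16.5 with 24 of the 26 tags in 10 kb. Next came the claudin gene Cldn34d (fold enrichment 14.2, 22 tags), Jarid2, a subunit gene of Polycomb complex PRC2 (9.57, 12 tags), Phf2 (8.59, 30 tags), the kinase gene Camk1d (8.47, 10 tags), Smo, the Hedgehog signal transducer gene (7.91, 11 tags), and Mogat1, an acylglycerol synthesis gene (7.36, 9 tags). Vps45, a vesicle transport gene, had 7.15 with 8 tags, Usp3, a deubiquitinase gene, 6.56 with 7, and Cntnap5b 6.46 with 7. The lowest peak of the Ctrl list had 7 tags, so most of these KO peaks lie near the lower limit of what was called.

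Phf2, the gene made deletable in these mice, is on chromosome 13 from 48801750 to 48870885, and its KO IgG peak ran from 48822891 to 48824114. With 1224 bp it was wide against a median of 226 bp in KO-only peaks. The summit had 30 tags (20.2 to 42.8), with 131 in the surrounding 10 kb. Of the other KO peaks at protein-coding genes only the one at Chl1 (202) and both at Tmem267 (148 and 180) had as many tags in 10 kb. No Ctrl IgG peak was called there, and neither PHF2 list had a peak within 100 kb. The floxed segment's position was not used here, so where the peak lies relative to it, and what gives rise to it, was not tested.

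Gene lists of muscle and other cells held no IgG peak. Markers of fibres (8 genes), satellite cells (4), endothelial cells (4), fibro-adipogenic cells (4) and immune cells (4), sarcomere genes (18) and immediate early genes (19) had 0 members at a peak in either library. Of 19 mitochondrial tRNA synthetase genes Lars2 alone had one, in both. Among 13 gene families often found in tandem arrays, picked by the start of the gene symbol, 0 of 2252 genes had one. They included olfactory receptors, vomeronasal receptors, zinc finger genes with symbols starting in Zfp, histones and keratins. Zc3h7a, a zinc finger gene outside that Zfp list, had a peak in both libraries. Read against 0.0548% and 0.123% of all genes, counts of 0 in lists of these sizes say little.

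Against the PHF2 lists, no IgG region overlapped a PHF2 peak. The IgG peaks covered only 47369 bp in Ctrl and 58979 bp in KO. How many overlaps so small a part of the genome would give by place alone was not measured, so the count of 0 says little. Within 10 kb of an IgG peak lay 1 of the 1621 Ctrl PHF2 peaks, at Usp3, 869 bp from the KO IgG peak of 7 tags, and within 100 kb lay 7. For the 161 KO PHF2 peaks the count was 0 at both distances. Among IgG peaks found in both lists, the nearest to a Ctrl PHF2 peak were the one inside Cmss1 and Filip1l, 37039 bp away, the one at the chromosome 1 end from 195241610 to 195241870, 110065 bp away, and the one in Gphn, 123811 bp away. The control used when PHF2 peaks were called is not given in the sources used here, so whether calling itself removed PHF2 peaks at these regions was not tested.

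Among KO-only peaks that stood outside clusters, the tallest was at chromosome 12, 97061418 to 97061677, between genes, with 67 tags (51.9 to 85.1) of 72 in 10 kb and a fold enrichment of 28.0. It was followed by fold enrichment by chromosome 2, 182012976 to 182013222 (30 tags, 17.7), chromosome 6, 3201354 to 3201610 (29 tags, 17.1), chromosome 16, 98107519 to 98107753 (26 tags, 16.7), and the peak beyond Wls. Of the 76 KO-only peaks 37 had fewer than 10 tags and 20 had at least 20.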

How the data were processed

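CUT&RUN was done on gastrocnemius muscle with a commercial kit, per the labels' protocols. Bowtie2, MACS2 and the mm10 build are named in the submitters' processing notes, with settings not given in the sources used here. The files follow MACS2's narrowPeak layout of 10 columns, and each names its peaks after 1 library. Deposited fold enrichment is the ratio of summit height to local background, and significance against it is deposited as -log10 p and -log10 q. The deposited score repeats the -log10 q and was not used.

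Summit tags and background were solved per peak from MACS2's formulas, fold = (tags + 1) / (background + 1) with a Poisson upper tail for p. Among peaks with a background under 2, it was a whole number of steps, within 0.05 of a step, in 28 of 29 Ctrl and 93 of 93 KO peaks, and the best other step gave 41.4% and 49.5%. On simulated peaks 100% of tags were recovered. Those peaks were made with the same formulas and were not as tall as the tallest Ctrl summits. They check the solving only, not whether the deposited values follow the formulas. Intervals (Wilson, exact Poisson, 95%) and limits from a count of 0 (3 counts) cover counting error only. PCR copies may be among Ctrl tags.

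Starts were written 1-based. Genes, promoter windows and miRNAs came from RefSeq tables of GRCm38.p6, the assembly behind mm10, matched by coordinates, with no strand or exons in the gene table. Some miRNAs and promoters are not in these tables. Named were all protein-coding genes at a peak in both libraries, up to 10 per library alone by fold enrichment, Phf2, every cluster, all Ctrl-only and mitochondrial peaks, and the 5 highest shared peaks per list and KO-only peaks. Other peaks, and Tmem267, were named after their values were seen. Members and lists were chosen with earlier results of these data known. Alternatives were a stricter q, other overlap rules, merged peaks, other windows, all genes, nuclear chromosomes only and a KO list of the Ctrl length. Scripts ran under Python 3.11.15 with SciPy 1.17.1, pandas 2.3.3 and NumPy 2.4.6, and figures were drawn with matplotlib 3.10.9.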

Additional observations from a re-analysis of the deposited data

How the results depend on the processing

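No paired analysis was possible because there was 1 library per group, which also meant that none could be omitted. Of 37 alternatives 22 stayed within the limit used (for shares the main value's Wilson interval, for counts and ratios 1.5 times the main value), 14 moved past it and 1 reversed. The share of Ctrl IgG peaks in the KO list (88.3%) was 76.6% with a reciprocal overlap of 50%, 48.1% with the KO list limited to its 77 peaks of highest fold enrichment and 96.4% outside clusters. The share of KO IgG peaks in the Ctrl list (50%) was 59.7% with a -log10 q of 5 or more in both lists, 62.2% with that limit on KO, 38.8% with the reciprocal overlap, 31.4% outside clusters and 76.2% for KO summits of at least 20 tags. The share of peaks in clusters (50.2%) was 59.8% with neighbours within 5 Mb and 36.4% after merging peaks within 1 kb, which leaves fewer peaks to count. Peaks at genes went from 14.3% to 32.5% in Ctrl and from 17.8% to 32.2% in KO when all annotated genes were used. Ctrl PHF2 peaks at IgG regions went from 0 to 1 within 1 kb and within 10 kb. The ratio of median fold enrichment of shared to KO-only KO peaks was 1.05 and turned to 0.886 with a -log10 q of 5 or more, where 2 shared peaks and 31 KO-only peaks were lost. The causes of the other shifts were not tested. The alternatives outside clusters, with at least 20 tags and with under 100 Ctrl tags, and the KO list of Ctrl length for the KO share, were chosen after seeing the data. Summit tags above 398 cannot be compared between the libraries. KO was also lower in all 23 pairs of 100 to 398 Ctrl tags, and whether such heights are on one scale was not tested. KO-only peaks of few tags lie near the lowest heights called in either list.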
